A study of Mus musculus with 12 samples.

Results

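Collagens are the main structural proteins of the extracellular matrix, and 44 genes of the mouse collagen family were measured in the left lungs of 12 mice, among 23410 transcript clusters (the array's units for a gene) that carry a gene symbol and 35556 clusters in all. Members were all clusters with a single gene symbol of the form Col, a number, a and a number, such as Col1a1. Col6a5 and Col6a6 had 2 such clusters, of which the brighter was used. They were sorted by the build of the protein into 11 fibrillar, 6 basement membrane, 9 FACIT (fibril-associated), 7 microfibrillar, 2 multiplexin, 4 network or anchoring fibril and 4 transmembrane members, and Col26a1 was left as other.

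The 4 groups of 3 mice were Fra-1-/- mice given bleomycin (KOT), Fra-1-/- mice given PBS (KOC), Fra-1+/+ mice given bleomycin (WTT) and Fra-1+/+ mice given PBS (WTC), all on a C57/129S background and 2 months old by their labels. The study's methods state a somewhat older age, as a range in weeks. Bleomycin, a drug that injures the lung and leads to fibrosis, was given into the trachea as 0.075 U in 30 µL, and lungs were taken after 5 days. By the study's methods the Fra-1-/- mice carried floxed Fra-1 alleles removed by a Cre that acts throughout the embryo proper, whereas the Fra-1+/+ mice carried the same floxed alleles without Cre. The 12 mice gave 12 arrays, with medians between 7.14 and 7.22 on the log2 scale. The labels name female mice, but on 12 of 12 arrays Xist, which is made from the silenced X chromosome of females, was at 4.47 to 4.94 log2 units, and the Y-linked Eif2s3y was at 8.52 to 8.93 log2 units, so that the labelled sex was not borne out. The mice are named by group and animal number. Animal numbers were 53 to 81 in all Fra-1-/- mice and 157 to 164 in all Fra-1+/+ mice but WTC 76, so differences between the genotypes cannot be told apart from what the numbers may stand for.

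Each collagen molecule is a triple helix of 3 alpha chains, and each gene encodes 1 chain. Types I, III and V build the fibrils of the lung interstitium, and type IV builds the sheets under epithelium and endothelium. The type IV chains of Col4a1 and Col4a2 are found in basement membranes throughout the body, whereas those of Col4a3, Col4a4 and Col4a5 form a separate network in the alveolus and the kidney glomerulus. Fibroblasts and myofibroblasts are the main source of fibrillar collagen in lung fibrosis. Fra-1, encoded by Fosl1, is a subunit of the transcription factor AP-1.

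Fosl1 was at 7.33, 7.32 and 7.28 log2 units in the KOT mice 72, 80 and 81, against 6.68, 6.26 and 6.56 log2 units in the KOC mice 53, 55 and 67. It was at 7.81, 8.19 and 8.32 log2 units in the WTT mice 160, 161 and 164, against 6.37, 6.76 and 6.86 log2 units in the WTC mice 76, 157 and 158. With bleomycin Fosl1 rose in limma by 0.81 (adjusted p = 0.00544, SE 0.15) in Fra-1-/- and by 1.44 (adjusted p = 0.000233, SE 0.15) in Fra-1+/+ mice, on the log2 scale. Treated and untreated mice did not overlap in either genotype. All KOT mice lay below all WTT mice, while the KOC and WTC mice overlapped. The log2 difference was -0.80 for KOT against WTT (adjusted p = 0.16, SE 0.15) and -0.16 for KOC against WTC (adjusted p = 0.792, SE 0.15), and neither passed the test of limma. A local-pooled-error test, written here after the study's methods, compares group medians at an adjusted p under 0.01. In that test KOT against WTT passed with a difference of -0.87 (adjusted p = 0.00383), and KOC against WTC did not (adjusted p = 1). Where the cluster's probes lie relative to the deleted part of the gene is not given in the sources used here, so these values do not settle the deletion.

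After bleomycin, genes of types I, III, IV, V, VI, VIII, XV and XVIII collagen rose in both genotypes, and 3 other chains of type IV fell. In Fra-1-/- lungs (KOT against KOC) 13 of the 44 genes were higher (29.5%) and 3 were lower (6.82%) at an adjusted p under 0.05, against 7.42% higher and 7.98% lower among all 23410 clusters. The values of the KOT mice did not overlap those of the KOC mice in 18 genes that were higher (40.9%) and 4 that were lower (9.09%), against 18.8% and 16.6% of all clusters. In Fra-1+/+ lungs (WTT against WTC) 16 genes were higher (36.4%) and 3 lower (6.82%), against 10.2% and 11.3% of all clusters. There the groups did not overlap in 19 genes that were higher (43.2%) and 4 that were lower (9.09%), against 18.3% and 17.4%. The share of higher genes was thus above that of all clusters in both genotypes, and the share of lower genes was not. The median log2 fold change over the 44 genes was 0.11 for KOT against KOC and 0.13 for WTT against WTC, beside 0.02 over all clusters in each. Without KOC 67 the median for KOT against KOC was 0.074, and with equal array medians it was 0.067, while the median for WTT against WTC was 0.22 without WTT 164. RNA of whole lung was measured, and more cells that make a collagen cannot be told apart from more of its RNA per cell.

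**Figure D1:**
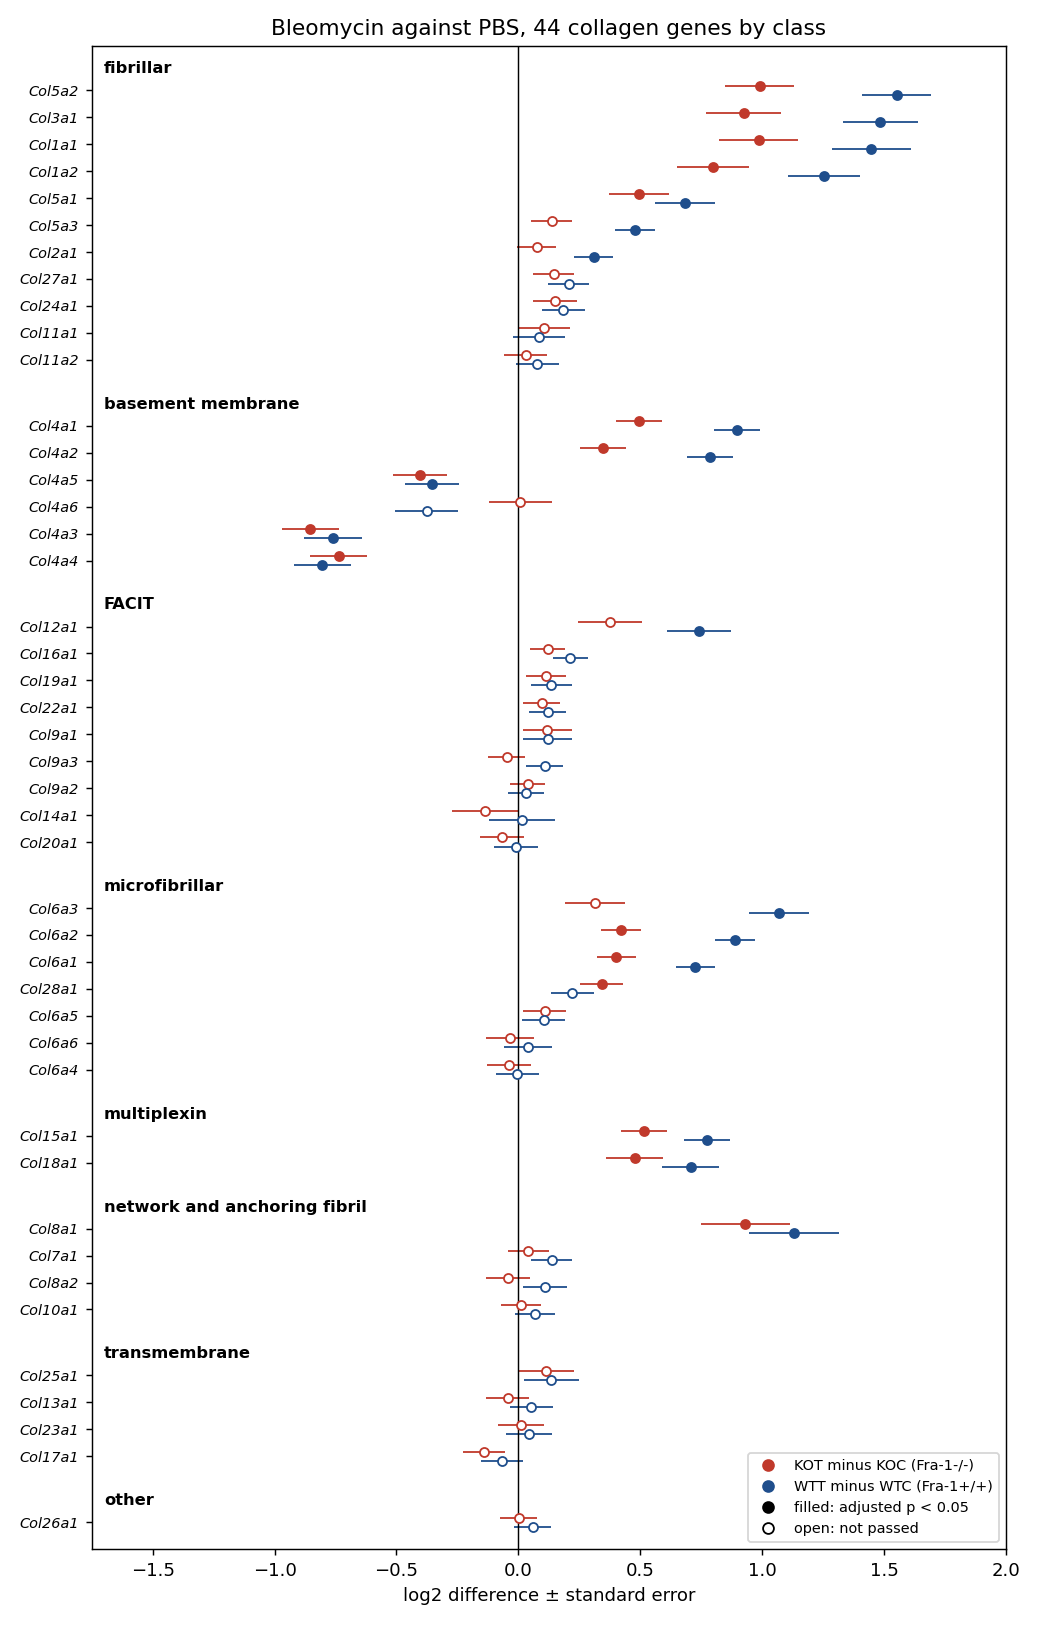
Log2 difference with its standard error for the 44 collagen genes, by class, for KOT minus KOC and for WTT minus WTC (3 mice per group). Filled points passed an adjusted p of 0.05: 13 genes rose and 3 fell in Fra-1-/- lungs, and 16 rose and 3 fell in Fra-1+/+ lungs, and all 3 that fell are type IV chains.

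Of the 11 fibrillar genes, 5 rose in Fra-1-/- lungs and 7 in Fra-1+/+ lungs, and none fell. Col1a1, which encodes the more abundant chain of type I collagen, was at 11.62, 11.31 and 11.64 log2 units in KOT mice, against 10.52, 10.80 and 10.29 log2 units in KOC mice. The WTT mice were at 11.80, 12.24 and 11.69 log2 units, against 10.56, 10.30 and 10.52 log2 units in WTC mice. Bleomycin-treated and PBS-treated mice did not overlap in either genotype. The log2 fold change was 0.99 (adjusted p = 0.00263, SE 0.16, 1.98-fold) in Fra-1-/- and 1.45 (adjusted p = 0.000303, SE 0.16, 2.73-fold) in Fra-1+/+ mice.

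Col1a2, the partner chain of Col1a1, rose by 0.80 (adjusted p = 0.00478, SE 0.15) in Fra-1-/- and by 1.25 (adjusted p = 0.00041, SE 0.15) in Fra-1+/+ mice, as log2 fold changes. Its values were 11.14, 10.78 and 11.05 log2 units in KOT mice, against 10.17, 10.43 and 9.97 log2 units in KOC mice. In WTT mice they were 11.29, 11.44 and 11.01 log2 units, against 10.16, 9.82 and 10.01 log2 units in WTC mice. No bleomycin-treated mouse reached down to a PBS-treated mouse. The 250 bases before the start of Col1a2 (RefSeq, GRCm38.p6, chr6:4505368-4505617, plus strand) are shown because Col1a2 is the type I gene for which a promoter was given, with the CCAAT letters and the GC box letters GGGCGG in capitals:
Col1a2 promoter: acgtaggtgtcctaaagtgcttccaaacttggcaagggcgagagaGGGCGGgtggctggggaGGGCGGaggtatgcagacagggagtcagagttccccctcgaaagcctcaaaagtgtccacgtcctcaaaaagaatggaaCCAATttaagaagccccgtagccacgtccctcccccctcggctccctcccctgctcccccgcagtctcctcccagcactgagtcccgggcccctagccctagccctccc

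Col3a1, the single chain of type III collagen, which mixes with type I in the same fibrils, was at 10.71, 10.41 and 10.76 log2 units in KOT mice, against 9.64, 9.95 and 9.52 log2 units in KOC mice. The WTT mice were at 10.78, 11.00 and 10.69 log2 units, against 9.63, 9.11 and 9.29 log2 units in WTC mice. Again treated and untreated mice did not overlap, and KOC 55 was the highest of the 6 PBS-treated mice. The log2 fold change of Col3a1 was 0.92 (adjusted p = 0.00281, SE 0.15) in Fra-1-/- and 1.48 (adjusted p = 0.000204, SE 0.15) in Fra-1+/+ mice. Col5a2, whose neighbour on chromosome 1 is Col3a1 with 0 protein-coding genes between, had the highest log2 fold change of the 44 genes in Fra-1+/+ mice and one level with that of Col1a1 in Fra-1-/- mice. It was at 8.73, 8.28 and 8.68 log2 units in KOT mice, against 7.65, 7.67 and 7.40 log2 units in KOC mice. Its WTT values were 8.72, 9.10 and 8.78 log2 units, against 7.50, 7.22 and 7.23 log2 units in WTC mice. Treated and untreated mice were apart by more than the spread within any group, at 0.99 (adjusted p = 0.00146, SE 0.14) in Fra-1-/- and 1.55 (adjusted p = 0.000108, SE 0.14) in Fra-1+/+ mice.

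Type V collagen sits in the core of type I fibrils and limits their width. Its other chains rose less than Col5a2: Col5a1 by 0.49 (adjusted p = 0.0196, SE 0.12) in Fra-1-/- and by 0.68 (adjusted p = 0.00296, SE 0.12) in Fra-1+/+ mice. The Fra-1-/- call on Col5a1 was lost when KOC 53, KOC 67, KOT 72 or KOT 81 was left out. Col5a3, the remaining chain of type V, was at 7.37, 7.31 and 7.24 log2 units in KOT mice, against 7.21, 7.30 and 7.01 log2 units in KOC mice. In WTT mice it was at 7.66, 7.82 and 7.67 log2 units, against 7.21, 7.29 and 7.21 log2 units in WTC mice. The KOT and KOC mice overlapped, with a log2 fold change of 0.14 (adjusted p = 0.321, SE 0.08), whereas the WTT and WTC mice were apart, at 0.48 (adjusted p = 0.00254, SE 0.08). The difference between these responses was -0.34 (adjusted p = 0.914, SE 0.12) and did not pass the test.

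Col2a1, the chain of cartilage fibrils, had a log2 fold change of 0.08 (adjusted p = 0.597) in Fra-1-/- and of 0.31 (adjusted p = 0.018, SE 0.08) in Fra-1+/+ mice. The Fra-1+/+ call was lost without WTC 76, WTC 158 or WTT 161. Among all clusters 7.42% rose and 7.98% fell in KOT against KOC, and 10.2% rose and 11.3% fell in WTT against WTC. Of 9 measured cartilage markers 0 rose and 2 fell in KOT against KOC, and 1 rose and 2 fell in WTT against WTC. The mean of their log2 levels per mouse lay between 6.13 and 6.32 in WTT mice, against 6.58 to 6.69 in WTC mice, and their part in the Col2a1 value was not tested. The remaining fibrillar genes Col11a1, Col11a2, Col24a1 and Col27a1, of which type XI is best known from cartilage, had log2 fold changes of 0.03 to 0.21 in the 2 genotypes, and none passed the test.

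**Figure D2:**
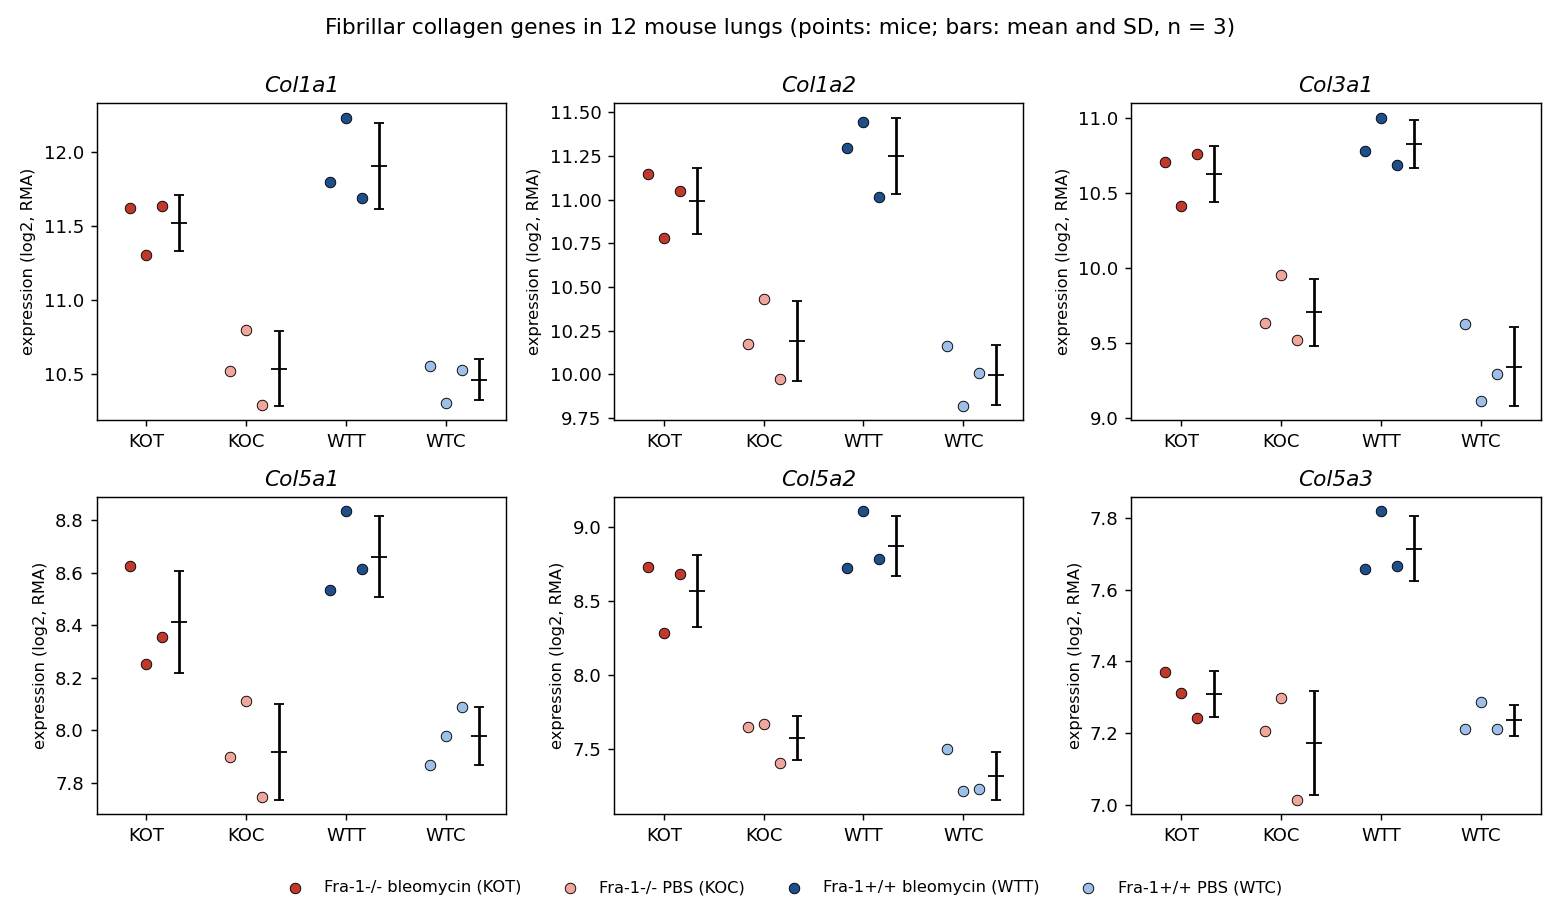
Log2 expression of 6 fibrillar collagen genes in each mouse, by group, with the mean and SD of 3 mice beside the points. For Col1a1, Col1a2, Col3a1, Col5a1 and Col5a2 the bleomycin-treated mice lie above the PBS-treated mice in both genotypes, while for Col5a3 the KOT and KOC mice overlap.

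Type IV collagen split by chain. Of its 6 genes 2 rose and 3 fell in each genotype, the same 5 genes both times. Col4a1 was at 10.37, 10.12 and 10.32 log2 units in KOT mice, against 9.67, 9.86 and 9.79 log2 units in KOC mice, and at 10.53, 10.41 and 10.59 log2 units in WTT mice, against 9.77, 9.55 and 9.52 log2 units in WTC mice. Treated mice lay above untreated mice without overlap. Col4a1 thus had log2 fold changes of 0.49 (adjusted p = 0.00555, SE 0.10) in Fra-1-/- and 0.90 (adjusted p = 0.000216, SE 0.10) in Fra-1+/+ mice. Col4a2, whose product joins that of Col4a1 in 1 trimer, had log2 fold changes of 0.35 (adjusted p = 0.028, SE 0.09) in Fra-1-/- and 0.79 (adjusted p = 0.000431, SE 0.09) in Fra-1+/+ mice. The Fra-1-/- call on Col4a2 was lost without KOC 53, KOC 55, KOT 72 or KOT 81, and also where all array medians were set equal.

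Col4a1 and Col4a2 lie head to head on chromosome 8, with 0 protein-coding genes between them, and their promoter windows, from 250 bases before to 50 after a start, overlap by 78 bases. The RefSeq start of Col4a2, on the plus strand, and that of Col4a1, on the minus strand, are the first and last of 22 bases (GRCm38.p6, chr8:11312805-11312826). These bases thus lie from each start onward, and not within the 250 bases before a start that were searched for motifs. They are shown on the plus strand, with GC box letters in capitals, because the 2 genes that rose share them:
Col4a1 and Col4a2 starts: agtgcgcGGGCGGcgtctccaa

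The genes of the alveolar network moved the other way. Col4a3 was at 7.82, 8.30 and 7.91 log2 units in KOT mice, against 8.91, 8.93 and 8.76 log2 units in KOC mice, and at 8.12, 7.85 and 7.90 log2 units in WTT mice, against 8.70, 8.77 and 8.70 log2 units in WTC mice. All 6 treated mice lay below all 6 untreated mice, with KOT 80 the highest of the treated. The log2 fold change was -0.85 (adjusted p = 0.0013, SE 0.12) in Fra-1-/- and -0.76 (adjusted p = 0.00135, SE 0.12) in Fra-1+/+ mice. Col4a4, the neighbour of Col4a3 on chromosome 1 with 0 protein-coding genes between, was at 7.46, 7.91 and 7.62 log2 units in KOT mice, against 8.38, 8.38 and 8.44 log2 units in KOC mice. In WTT mice it was at 7.81, 7.52 and 7.46 log2 units, against 8.41, 8.44 and 8.35 log2 units in WTC mice. The pattern over mice was like that of Col4a3, KOT 80 again standing highest among the treated Fra-1-/- mice, and the log2 fold changes were -0.74 (adjusted p = 0.0022, SE 0.12) in Fra-1-/- and -0.80 (adjusted p = 0.000981, SE 0.12) in Fra-1+/+ mice.

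Col4a5, the third chain of that network, was at 7.46, 7.69 and 7.25 log2 units in KOT mice, against 7.85, 7.87 and 7.90 log2 units in KOC mice, and at 7.63, 7.69 and 7.37 log2 units in WTT mice, against 7.90, 7.96 and 7.89 log2 units in WTC mice. Groups did not overlap, but the treated mice spread more widely than the untreated ones. The log2 fold changes were -0.40 (adjusted p = 0.0293, SE 0.11) in Fra-1-/- and -0.35 (adjusted p = 0.04, SE 0.11) in Fra-1+/+ mice. These 2 calls were the least stable, the Fra-1-/- one being lost on leaving out any of 5 of the 12 mice and the Fra-1+/+ one any of 8, always with the value still negative.

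Col4a6 encodes a chain of smooth muscle basement membranes and lies next to Col4a5 on the X chromosome, with 1343 bases between their start sites. It was at 6.53, 6.58 and 6.35 log2 units in KOT mice, against 6.36, 6.28 and 6.80 log2 units in KOC mice, and at 6.76, 6.66 and 6.47 log2 units in WTT mice, against 6.95, 7.02 and 7.06 log2 units in WTC mice. The KOT values lay within the range of the KOC values, which KOC 67 widened, whereas the WTT and WTC mice were apart. The log2 fold changes were 0.01 (adjusted p = 0.98, SE 0.13) in Fra-1-/- and -0.38 (adjusted p = 0.0588, SE 0.13) in Fra-1+/+ mice, and their difference of 0.38 (adjusted p = 0.963, SE 0.18) did not pass.

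Markers of epithelium moved in the same mice. Among all clusters 7.98% fell in KOT against KOC and 11.3% in WTT against WTC. Of 10 lung epithelium markers 0 rose and 3 fell in KOT against KOC, and 0 rose and 4 fell in WTT against WTC. The mean of their log2 levels per mouse lay between 11.84 and 12.10 in KOT mice, against 12.25 to 12.27 in KOC mice, and between 11.66 and 11.95 in WTT mice, against 12.20 to 12.26 in WTC mice. Hopx and Ager, markers of the flat alveolar epithelial cells that share a basement membrane with capillaries, fell. Hopx had a log2 fold change of -1.01 (adjusted p = 0.0015) in KOT against KOC and of -1.19 (adjusted p = 0.00048) in WTT against WTC. Ager had -0.60 (adjusted p = 0.014) in KOT against KOC and -0.76 (adjusted p = 0.00323) in WTT against WTC. Endothelial markers fell in 7 of 8 genes in Fra-1-/- and in 6 of 8 in Fra-1+/+ lungs. The part of either cell type in the Col4a3, Col4a4 and Col4a5 values was not tested.

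**Figure D3:**
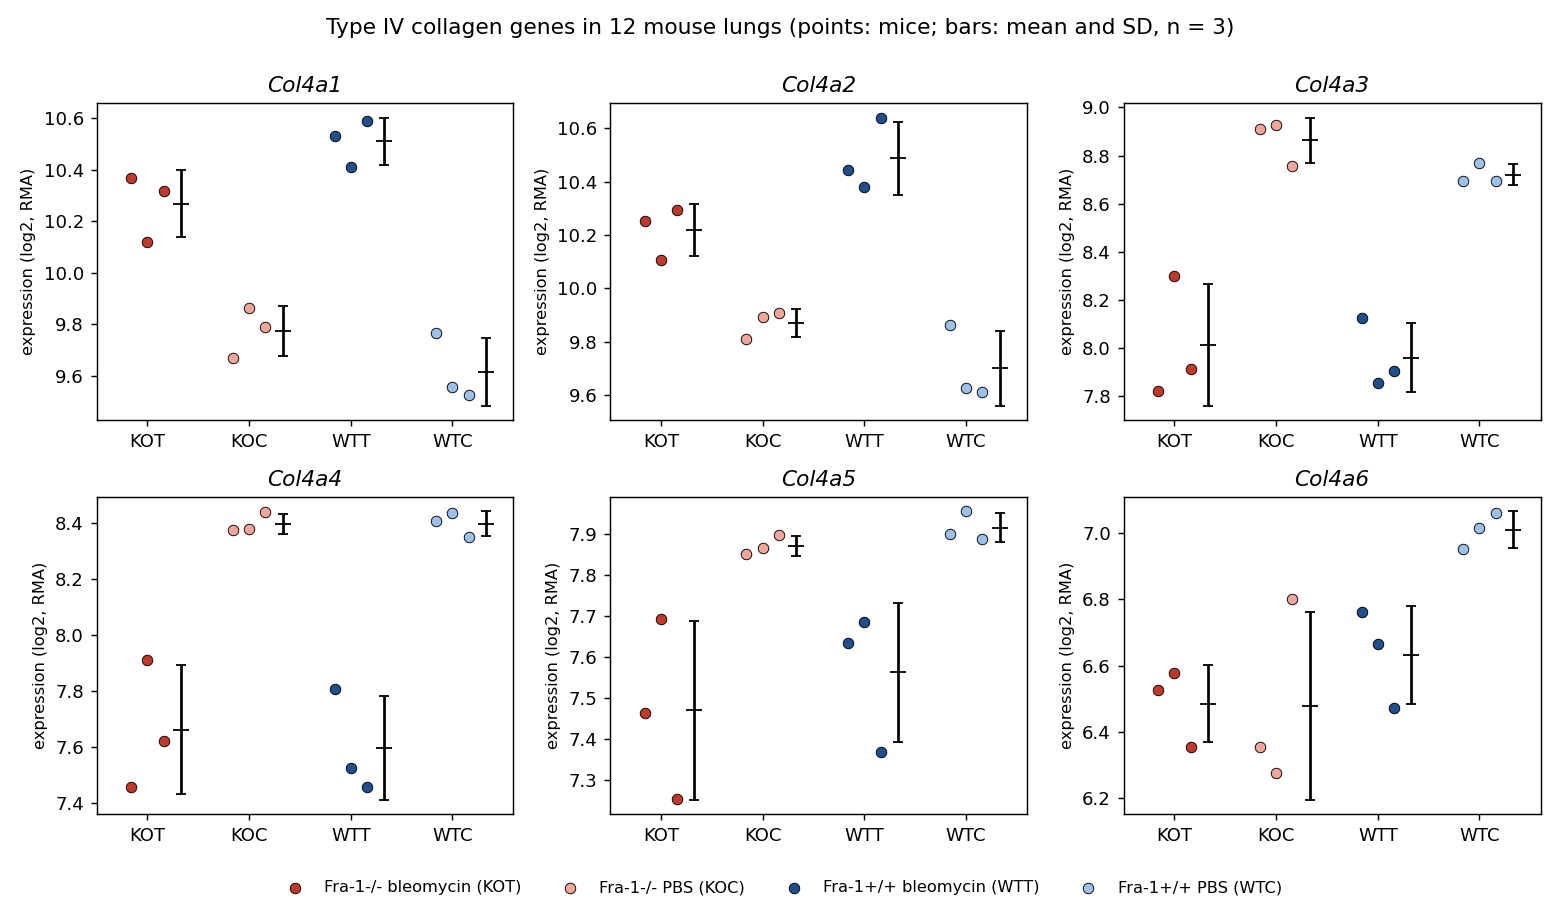
Log2 expression of the 6 type IV collagen genes in each mouse, by group, with the mean and SD of 3 mice beside the points. Col4a1 and Col4a2 are higher, and Col4a3, Col4a4 and Col4a5 lower, in bleomycin-treated than in PBS-treated mice of both genotypes, and the Col4a6 values of KOC and WTC mice do not overlap.

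Type VI collagen forms beaded microfilaments that link cells to the fibrils, from the chains of Col6a1, Col6a2 and Col6a3. Col6a1 and Col6a2, neighbours on chromosome 10 with 0 protein-coding genes between, rose in Fra-1-/- lungs, and all 3 genes rose in Fra-1+/+ lungs. Col6a3 was at 9.93, 9.67 and 9.64 log2 units in KOT mice, against 9.35, 9.66 and 9.28 log2 units in KOC mice. In WTT mice it was at 10.14, 10.51 and 10.22 log2 units, against 9.23, 9.18 and 9.25 log2 units in WTC mice. KOC 55 reached into the KOT range, while the WTT mice all lay well above the WTC mice. As log2 fold changes these were 0.31 (adjusted p = 0.115, SE 0.12) in Fra-1-/- and 1.07 (adjusted p = 0.000359, SE 0.12) in Fra-1+/+ mice.

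Col6a2 was at 10.01, 9.91 and 9.93 log2 units in KOT mice, against 9.48, 9.68 and 9.43 log2 units in KOC mice, and at 10.13, 10.28 and 10.22 log2 units in WTT mice, against 9.33, 9.23 and 9.41 log2 units in WTC mice. In both genotypes the groups were apart, and the KOT and KOC mice lay between the WTT and the WTC mice. The log2 fold changes were 0.42 (adjusted p = 0.0065, SE 0.08) in Fra-1-/- and 0.89 (adjusted p = 0.000117, SE 0.08) in Fra-1+/+ mice. Col6a1 showed 0.40 (adjusted p = 0.00649, SE 0.08) in Fra-1-/- and 0.73 (adjusted p = 0.000259, SE 0.08) in Fra-1+/+ mice. The chains of Col6a4, Col6a5 and Col6a6, which have a narrower tissue range, had log2 fold changes of -0.04 to 0.11 in the 2 genotypes, none past the test. Col28a1, a collagen known from peripheral nerve that was sorted with type VI, was the single gene that passed in Fra-1-/- mice alone, at 0.34 (adjusted p = 0.0226, SE 0.09), beside 0.22 (adjusted p = 0.1, SE 0.09) in Fra-1+/+ mice. The difference between these responses was 0.12 (adjusted p = 0.99), and the Fra-1-/- call was lost without KOC 55, KOC 67, KOT 72 or KOT 81.

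**Figure D4:**
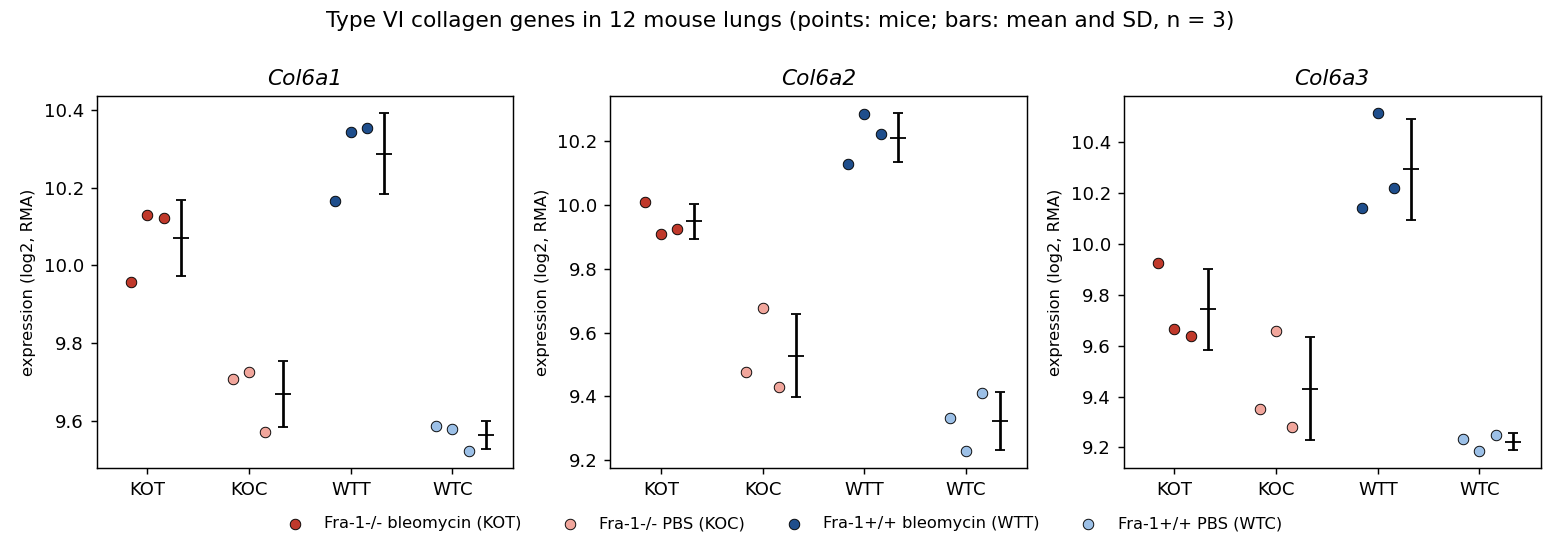
Log2 expression of Col6a1, Col6a2 and Col6a3 in each mouse, by group, with the mean and SD of 3 mice beside the points. For Col6a2 and Col6a3 all KOT mice lie below all WTT mice and all KOC mice above all WTC mice.

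The 250 bases before the start of Col6a1 (RefSeq, GRCm38.p6, chr10:76726045-76726294, minus strand) are shown because Col6a1 was the only member whose stretch held the AP-1 letters TGANTCA, given in capitals:
Col6a1 promoter: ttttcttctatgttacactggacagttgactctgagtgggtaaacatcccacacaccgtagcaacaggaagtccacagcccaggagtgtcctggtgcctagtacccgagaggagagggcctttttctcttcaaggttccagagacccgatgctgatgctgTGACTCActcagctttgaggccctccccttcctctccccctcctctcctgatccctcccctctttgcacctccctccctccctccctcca

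RefSeq promoters were given for 35 of the 44 genes. Searched on both strands, TGANTCA was in 1 of these 35 genes (2.86%), against 7.82% of 27025 genes, CCAAT in 13 (37.1%), against 37.5%, and GGGCGG in 21 (60.0%), against 35.4%. The 3 motifs do not overlap each other in the sequences shown. Among the 12 genes with a promoter that rose in Fra-1+/+ lungs, GGGCGG was in 7, and among the 21 that passed in neither direction it was in 13. A match describes letters and shows no binding, and the letters' absence from 250 bases shows nothing about AP-1.

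The multiplexins, which carry sugar chains in vascular and epithelial basement membrane zones, both rose. Col15a1 had log2 fold changes of 0.52 (adjusted p = 0.0045, SE 0.09) in Fra-1-/- and 0.77 (adjusted p = 0.000476, SE 0.09) in Fra-1+/+ mice. Col18a1, the source of the fragment endostatin, had 0.48 (adjusted p = 0.0169, SE 0.12) in Fra-1-/- and 0.71 (adjusted p = 0.00181, SE 0.12) in Fra-1+/+ mice, and the Fra-1-/- call was lost without KOC 67, KOT 72 or KOT 81. Col8a1, a short-chain collagen that vascular cells make during remodelling, was at 8.78, 8.59 and 8.99 log2 units in KOT mice, against 7.81, 7.96 and 7.80 log2 units in KOC mice. In WTT mice it was at 8.45, 9.29 and 8.68 log2 units, against 7.50, 7.73 and 7.80 log2 units in WTC mice. Treated and untreated mice were apart in both genotypes, with WTT 161 far above the other treated Fra-1+/+ mice. The log2 fold changes were 0.93 (adjusted p = 0.00628, SE 0.18) in Fra-1-/- and 1.13 (adjusted p = 0.00167, SE 0.18) in Fra-1+/+ mice. Its partner Col8a2 had -0.04 in Fra-1-/- and 0.11 in Fra-1+/+ mice and did not pass.

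FACIT collagens coat the surface of fibrils. Of 9 genes only Col12a1, a collagen of tissues under tension, passed. It was at 8.82, 8.96 and 8.83 log2 units in KOT mice, against 8.56, 8.29 and 8.64 log2 units in KOC mice, and at 8.98, 9.55 and 9.19 log2 units in WTT mice, against 8.50, 8.49 and 8.50 log2 units in WTC mice. Neither genotype's groups overlapped. It had log2 fold changes of 0.38 (adjusted p = 0.0778, SE 0.13) in Fra-1-/- and 0.74 (adjusted p = 0.00267, SE 0.13) in Fra-1+/+ mice, of which only the Fra-1+/+ value passed, and their difference of -0.36 (adjusted p = 0.963, SE 0.19) did not. The other 8 FACIT genes had log2 fold changes of -0.14 to 0.12 in Fra-1-/- and of -0.01 to 0.21 in Fra-1+/+ mice. The 4 transmembrane collagens Col13a1, Col17a1, Col23a1 and Col25a1 lay between -0.14 and 0.13, the anchoring fibril gene Col7a1 and the cartilage gene Col10a1 between 0.01 and 0.14, and Col26a1 at 0.06 and 0.00, with none past the test.

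In all, 12 genes rose and 3 fell in both genotypes, 1 (Col28a1) rose in Fra-1-/- lungs alone, 4 (Col2a1, Col5a3, Col6a3 and Col12a1) in Fra-1+/+ lungs alone, and 24 passed in neither. How many of all clusters passed in both genotypes or in 1 alone was not counted. Whether these collagen counts differ from the rest of the array was thus not tested. Of the 35 calls, 21 were kept under all alternatives tried, 7 were lost only in the local-pooled-error test, and 7 (Col4a2, Col4a5, Col5a1, Col18a1 and Col28a1 in Fra-1-/-, and Col2a1 and Col4a5 in Fra-1+/+ lungs) also elsewhere. Of 19 genes with a mean over the 12 arrays of at least 8 log2 units, 14 rose and 2 fell in WTT against WTC. Of the 25 dimmer genes 2 rose and 1 fell. The boundary was chosen after the data were seen. Calls among all clusters of each brightness were not counted, so whether this split is particular to collagen genes was not tested.

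Between genotypes no collagen gene passed the test, yet after bleomycin most of them were lower in Fra-1-/- than in Fra-1+/+ lungs. For KOT against WTT 0 of 44 genes passed, against 0.0427% of all clusters. The log2 difference was below 0 in 40 of the 44 genes (90.9%), beside 54.2% of all clusters, with a median of -0.19 over the members and -0.01 over all clusters, and 40 of 44 were also below 0 under cyclic loess and with equal array medians. At an unadjusted p under 0.05, 17 genes were lower (38.6%) and 0 higher, against 6.32% and 4.27% of all clusters. KOT mice lay wholly below WTT mice in 19 genes (43.2%) and wholly above in 0, against 8.8% and 6.92%. The local-pooled-error test passed 0 of 44. The WTT mice stand in both this comparison and WTT against WTC, so the values of the 2 are not independent.

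The 3 genes with the smallest p were Col5a3, at a log2 difference of -0.41 (adjusted p = 0.167, SE 0.08), Col6a3, at -0.55 (adjusted p = 0.21, SE 0.12), and Col9a3, a FACIT chain of cartilage, at -0.30 (adjusted p = 0.246, SE 0.08). The KOT mice were at 7.46, 7.46 and 7.47 log2 units for Col9a3, against 7.68, 7.89 and 7.73 log2 units in WTT mice, without overlap. For Col1a1 the log2 difference was -0.38 (adjusted p = 0.437, SE 0.16), for Col1a2 -0.26 (adjusted p = 0.568, SE 0.15) and for Col3a1 -0.20 (adjusted p = 0.685, SE 0.15). These 3 values, none past the test, moved with single mice and settings but stayed below 0. Without WTT 161 they were -0.22 for Col1a1, -0.16 for Col1a2 and -0.11 for Col3a1, and without KOT 80 those of Col1a2 and Col3a1 were -0.15 and -0.09. Only Col1a1 of these 3 had no overlap between KOT and WTT mice. The log2 differences of the 11 fibrillar genes ran from -0.41 to -0.14, and those of the 7 microfibrillar genes from -0.55 to -0.09. Basement membrane genes ran from -0.27 to 0.07, with Col4a3 and Col4a4 at 0.05 and 0.07.

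Most dim clusters on the array were below 0 as well. Among the 13006 clusters with a mean under 8 log2 units, 64.8% were below 0 for KOT against WTT, with a median of -0.06, and 24 of the 25 dimmer collagen genes were, with a median of -0.15. Among the 10404 brighter clusters 41.0% were below 0, with a median of 0.03, against 16 of the 19 brighter collagen genes, with a median of -0.23. Heart muscle markers were higher in KOT than in WTT mice in 8 of 8 genes, 0 of which passed, with a mean of their log2 levels of 9.52 to 9.88 in KOT mice, against 8.44 to 9.17 in WTT mice. Their part in the collagen values was not tested.

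With PBS alone no collagen gene passed between the genotypes. The count for KOC against WTC was 0 of 44 genes, against 0.0128% of all clusters, and at an unadjusted p under 0.05 there were 3 genes higher and 4 lower (6.82% and 9.09%), against 2.94% and 6.88% of all clusters. Mice did not overlap in 3 genes that were higher (6.82%) and 8 that were lower (18.2%), against 6.88% and 9.37%. The median log2 difference was -0.04, and it turned to 0.01 with equal array medians, so no direction is given for the family here. Of the 19 brighter genes 4 were below 0 and of the 25 dimmer ones 22, beside 32.7% and 67.8% of all clusters of that brightness. Col4a6 had the smallest p, with a log2 difference of -0.53 (adjusted p = 0.345, SE 0.13), and without KOC 67 it was -0.69 and passed (adjusted p = 0.0446). Col28a1 followed at -0.26 (adjusted p = 0.437, SE 0.09) and Col6a2 at 0.20 (adjusted p = 0.472, SE 0.08). Col3a1 was at 0.36 (adjusted p = 0.486, SE 0.15), Col1a2 at 0.20 (adjusted p = 0.728, SE 0.15) and Col1a1 at 0.08 (adjusted p = 0.929, SE 0.16). Without KOC 55 these were 0.24 for Col3a1, 0.08 for Col1a2 and -0.05 for Col1a1, and that of Col6a2 was 0.13.

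**Figure D5:**
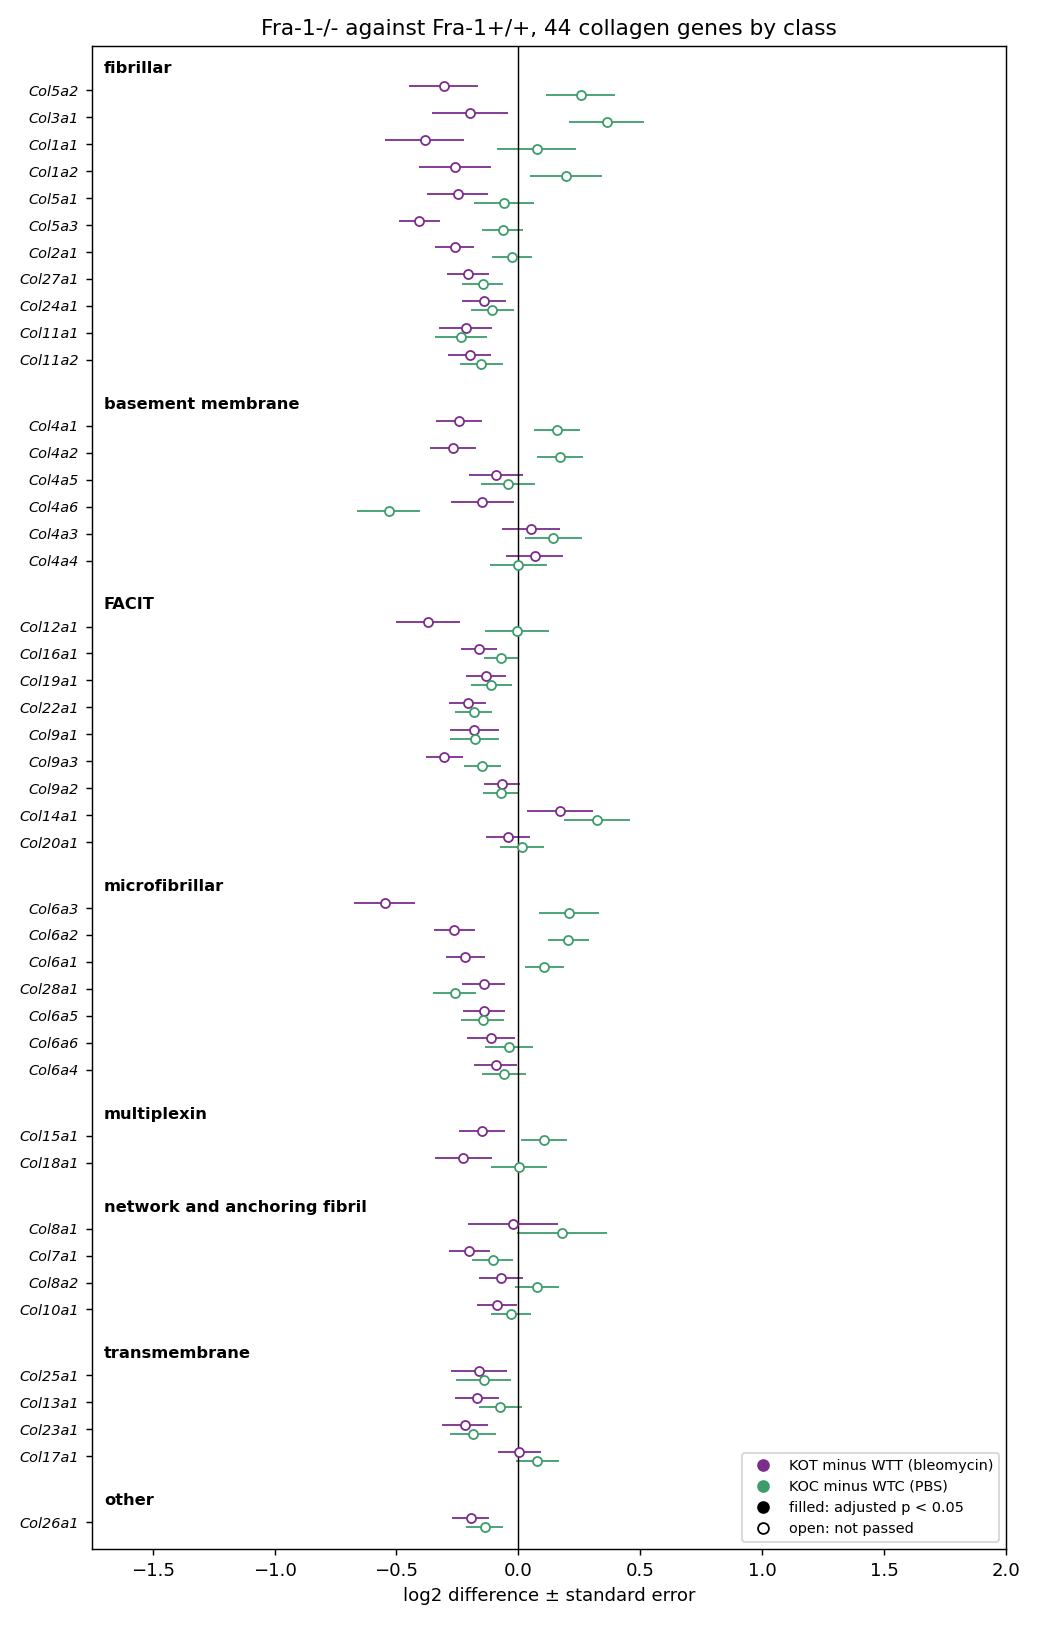
Log2 difference with its standard error for the 44 collagen genes, by class, for KOT minus WTT and for KOC minus WTC (3 mice per group). No point is filled, since 0 genes passed the test in either comparison, and 40 of the 44 KOT minus WTT values lie below 0.

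The bleomycin response of Fra-1-/- mice minus that of Fra-1+/+ mice tests directly whether the responses differ. No collagen gene passed, nor did any cluster (0%). At an unadjusted p under 0.05 there were 8 genes below 0 (18.2%) and 0 above, against 2.1% and 2.99% of all clusters, and 0 of 44 passed the local-pooled-error test. The difference was below 0 in 38 of 44 genes (86.4%), beside 51.4% of all clusters, with a median of -0.09 against -0.01 on the log2 scale, and the number below 0 ranged from 32 to 40 as single mice were left out. The median was -0.15 without WTT 164 and -0.14 with equal array medians. Here too the genes share the same mice, so the counts are no test of the family. Col6a3 had the smallest p at -0.76 (adjusted p = 0.845, SE 0.17), then Col6a2 at -0.47 (adjusted p = 0.845, SE 0.12) and Col4a2 at -0.44 (adjusted p = 0.845, SE 0.13). Col3a1 was at -0.56 (adjusted p = 0.963, SE 0.22), Col1a1 at -0.46 (adjusted p = 0.963, SE 0.23) and Col1a2 at -0.45 (adjusted p = 0.963, SE 0.21), and Col1a1 was at -0.30 without WTT 161. In Col4a3 and Col4a4 it was -0.09 (SE 0.17) and 0.07 (SE 0.16).

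Genes that process collagen rose with bleomycin more often than all clusters did. Of 28 measured genes for hydroxylating, folding, trimming and cross-linking collagen, 10 rose and 3 fell in Fra-1-/- lungs, with a median log2 fold change of 0.21. In Fra-1+/+ lungs 16 rose and 3 fell, with a median of 0.35. Among all clusters 7.42% rose and 7.98% fell in Fra-1-/- lungs, and 10.2% rose and 11.3% fell in Fra-1+/+ lungs. The shares that rose were above these, and the shares that fell were near them. P4ha3, a subunit of the enzyme that hydroxylates proline in collagen, rose by 1.43 (adjusted p = 0.0015, SE 0.21) in Fra-1-/- and by 1.94 (adjusted p = 0.000233, SE 0.21) in Fra-1+/+ mice. Lox, which cross-links fibrils, rose by 1.43 (adjusted p = 0.00293, SE 0.24) in Fra-1-/- and by 1.78 (adjusted p = 0.000731, SE 0.24) in Fra-1+/+ mice. Plod1, a lysyl hydroxylase, rose by 0.50 (adjusted p = 0.0091, SE 0.11) in Fra-1-/- and by 0.80 (adjusted p = 0.000673, SE 0.11) in Fra-1+/+ mice. Pcolce2, which enhances trimming of procollagen, had a log2 fold change of -1.72 (adjusted p = 0.0013, SE 0.24) in Fra-1-/- and -1.74 (adjusted p = 0.000752, SE 0.24) in Fra-1+/+ mice. Colgalt2, which adds galactose to collagen, was at -1.24 (adjusted p = 0.00166, SE 0.19) in Fra-1-/- and -1.34 (adjusted p = 0.000775, SE 0.19) in Fra-1+/+ mice, and P3h2, a prolyl hydroxylase of type IV collagen, was at -0.94 (adjusted p = 0.00458, SE 0.17) in Fra-1-/- and -1.10 (adjusted p = 0.00147, SE 0.17) in Fra-1+/+ mice. No gene of this list passed between genotypes. The collagen chaperone Serpinh1 was at -0.40 (adjusted p = 0.318), Loxl4 at -0.28 (adjusted p = 0.301) and Adamts14 at -0.29 (adjusted p = 0.355) for KOT against WTT.

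Of 12 genes of collagen breakdown and its inhibitors, 6 rose in Fra-1-/- and 7 in Fra-1+/+ lungs, and 0 fell in either. Among all clusters 7.42% rose in Fra-1-/- and 10.2% in Fra-1+/+ lungs. Timp1, an inhibitor of collagenases, rose by 3.62 (adjusted p = 0.000112, SE 0.29) in Fra-1-/- and by 3.95 (adjusted p = 5.36e-05, SE 0.29) in Fra-1+/+ mice on the log2 scale. Mmp14, a membrane-bound collagenase, rose by 1.11 (adjusted p = 0.000425, SE 0.12) in Fra-1-/- and by 1.59 (adjusted p = 5.36e-05, SE 0.12) in Fra-1+/+ mice. Mmp13, the main interstitial collagenase of the mouse, rose by 1.24 (adjusted p = 0.00138, SE 0.18) in Fra-1-/- and by 0.86 (adjusted p = 0.00546, SE 0.18) in Fra-1+/+ mice. Of 9 collagen receptors, Lair1, an inhibitory receptor of leukocytes, rose by 1.44 (adjusted p = 0.00271, SE 0.24) in Fra-1-/- and by 1.11 (adjusted p = 0.00712, SE 0.24) in Fra-1+/+ mice. Itga1, an integrin chain that binds type IV collagen, fell by 0.57 (adjusted p = 0.00296, SE 0.10) in Fra-1-/- and by 0.61 (adjusted p = 0.00143, SE 0.10) in Fra-1+/+ mice, and the other 7 did not pass. With 1 of 9 receptors up and 1 down in each genotype, the receptor calls were near the shares among all clusters. Of 13 genes of TGF-beta and its response, 7 rose and 1 fell in Fra-1-/- and 8 rose and 1 fell in Fra-1+/+ lungs. Fn1, which encodes fibronectin, rose by 1.69 (adjusted p = 0.00017, SE 0.15) in Fra-1-/- and by 1.51 (adjusted p = 0.000152, SE 0.15) in Fra-1+/+ mice. Tnc, which encodes tenascin C, rose by 2.34 (adjusted p = 0.00042, SE 0.24) in Fra-1-/- and by 3.50 (adjusted p = 5.36e-05, SE 0.24) in Fra-1+/+ mice. No gene of these 3 lists passed in KOT against WTT or KOC against WTC.

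The counts of markers stand beside 7.42% of all clusters that rose and 7.98% that fell in Fra-1-/- lungs, and 10.2% and 11.3% in Fra-1+/+ lungs. Of 12 fibroblast markers 0 rose and 5 (Tcf21, Gsn, Clec3b, Inmt and Npnt) fell in Fra-1-/- lungs, and 1 (Mfap5) rose and the same 5 fell in Fra-1+/+ lungs. The mean of their log2 levels per mouse lay between 10.34 and 10.54 in KOT mice, against 10.64 to 10.87 in KOC mice, and between 10.24 and 10.31 in WTT mice, against 10.60 to 10.64 in WTC mice. Lum, a proteoglycan that binds collagen fibrils, was the 1 fibroblast marker that passed for KOT against WTT, at a log2 difference of 0.95 (adjusted p = 0.0367). Of 8 smooth muscle and myofibroblast markers 0 passed in Fra-1-/- lungs, and 3 (Acta2, Tagln and Actg2) rose and 0 fell in Fra-1+/+ lungs. The list did not move 1 way, since 4 of the 8 log2 fold changes were below 0 in each genotype. The lowest was -0.42 in Fra-1-/- and -0.53 in Fra-1+/+ mice. WTT mice lay wholly above WTC mice in 3 markers and wholly below in 2, against 18.3% and 17.4% of all clusters. In the local-pooled-error test 1 marker was higher and 1 lower in WTT against WTC. Acta2, the smooth muscle actin of myofibroblasts, had log2 fold changes of 0.21 (adjusted p = 0.379, SE 0.15) in Fra-1-/- and 0.61 (adjusted p = 0.0129, SE 0.15) in Fra-1+/+ mice. Tagln, an actin-binding protein of the same cells, had 0.27 (adjusted p = 0.175, SE 0.12) in Fra-1-/- and 0.62 (adjusted p = 0.00502, SE 0.12) in Fra-1+/+ mice. The difference between responses passed in 0 of the 8 genes, at -0.39 (adjusted p = 0.963, SE 0.21) for Acta2. The mean of the 8 log2 levels lay between 9.32 and 9.67 in KOT mice, against 9.27 to 9.84 in KOC mice, and between 9.49 and 9.79 in WTT mice, against 9.34 to 9.53 in WTC mice, so that the groups overlapped in both genotypes. Of 7 leukocyte markers 3 rose and 1 fell in Fra-1-/- and 2 rose and 1 fell in Fra-1+/+ lungs, with Cd68, a macrophage marker, at 1.07 (adjusted p = 0.00209) in Fra-1-/- and 1.18 (adjusted p = 0.00087) in Fra-1+/+ mice on the log2 scale. Heart muscle markers fell in 0 of 8 genes in Fra-1-/- lungs and in 6 of 8 in Fra-1+/+ lungs. The part of these cell types in the collagen values was not tested. As a description over the 12 arrays, which hold the same 4 groups for all genes, the non-collagen genes closest to Col1a1 were Trem2 (r = 0.98), Eda2r (r = 0.98), Adgre1 (r = 0.98), Adamts12 (r = 0.98) and Slc37a2 (r = 0.97), among 782 genes whose group means spanned at least 1 log2 unit. Trem2 and Adgre1 are receptors of macrophages, and Adamts12 is a metalloprotease.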

How the data were processed

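Left lung RNA of 12 mice was hybridized to Affymetrix MoGene 1.0ST arrays, 1 array per mouse. The authors ran quantile normalization and RMA in Affymetrix Power Tools, as their methods state, and deposited log2 values for each transcript cluster, which were used with no further scaling. Versions are not given in the sources used here, and the authors' filter on detection above background was not applied. Clusters were named from a platform table in which 21789 carry 1 symbol, 1621 several and 12146 none. Tests covered the 23410 clusters that carry a symbol, and no collagen symbol stood in a cluster with several. The build of the array annotation is not stated, so coordinates are those of RefSeq promoters (GRCm38.p6), and RefSeq gene order gave the neighbours, with all 44 genes matched.

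Group means over the 12 arrays were estimated in a single linear model (limma 3.58.1, R 4.3.3), and its moderated two-sided p-values were adjusted by Benjamini-Hochberg over the 23410 clusters, with 0.05 as threshold. The script was tested on simulated data. A local-pooled-error test after the study's methods, on medians with an adjusted p under 0.01, was an alternative. It was written anew here and not run with the R library the study names, so its passes need not match the authors' own. Other alternatives were a limma threshold of 0.01, the 6 arrays of a comparison alone, trended and robust moderation, array weights, cyclic loess and equal array medians. Further ones were a minimum of 6 log2 units, all clusters, the mean of a gene's clusters, a term for animal numbers under 100, and leaving out each mouse. An exact two-sided test of 3 mice against 3 cannot go below 0.1, so single genes rest on variances pooled over clusters, and with 3 arrays a group precision is limited. The study's text calls the Fra-1+/+ mice littermates of the Fra-1-/- mice, but the labels tie no mouse to a litter or a day.

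The members and the gene lists were chosen with earlier results of these data known. By the rule for named genes, each member that passed in a comparison was named, with Col1a1, Col1a2 and Col3a1 in every comparison, the 3 smallest p where fewer than 3 passed, Fosl1 in every mouse, up to 3 members of each pathway list with the smallest p in a comparison, and the 5 genes most correlated with Col1a1. P3h2 and the cell type markers named in the text were chosen outside this rule, after their values were seen.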

Additional observations from a re-analysis of the deposited data

Results flagged for a closer look

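For Col6a2 and Col6a3 the genotypes stood in opposite order after bleomycin and after PBS. For both genes all KOT mice lay below all WTT mice, while all KOC mice lay above all WTC mice. Col6a2 and Col6a3 were picked from the 44 collagen genes for this pattern. Among all clusters, KOT mice lay wholly below WTT mice in 8.8%, and KOC mice wholly above WTC mice in 6.88%. Clusters showing this crossing were not counted, so whether it is more frequent among collagen genes than elsewhere was not tested. The bleomycin response of Fra-1-/- mice minus that of Fra-1+/+ mice was -0.47 for Col6a2 (adjusted p = 0.845, SE 0.12) and -0.76 for Col6a3 (adjusted p = 0.845, SE 0.17) on the log2 scale, so neither difference passed the test of limma over all clusters.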

How the results depend on the processing

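For KOT against KOC 16 collagen genes passed, 11 to 17 when a mouse was left out, and 7 (5 higher, 2 lower) in the local-pooled-error test, all 7 among the 16. The local-pooled-error threshold was 0.01. At that same threshold limma passed 11 (9 higher, 2 lower), all among the 16. What sets the 11 and the 7 apart was not tested. For WTT against WTC 19 passed, 17 to 20 without a mouse and 14 to 21 under the other alternatives. For KOT against WTT and for the difference between responses 0 passed under each alternative run. For KOC against WTC the count was 0 to 1 when a mouse was left out, the 1 being Col4a6 without KOC 67, and 0 otherwise. Col1a1 for KOC against WTC changed sign. Its log2 difference of 0.08 became -0.00292 in the local-pooled-error test and -0.021 with a term for animal number, and it lay between -0.054 and 0.198 when a mouse was left out, below 0 without WTC 157 or KOC 55. With the term for animal number, Col1a1, Col1a2 and Col3a1 were at -0.53, -0.51 and -0.62 for KOT against WTT, and Col1a2 and Col3a1 at 0.03 and 0.08 for KOC against WTC. That term rests on 1 mouse, WTC 76, the only Fra-1+/+ mouse numbered under 100, set against WTC 157 and WTC 158. Values with it are therefore no correction for a batch. Without WTC 157 Col1a2 was at 0.11 for KOC against WTC, and without KOC 67 at 0.31. The local-pooled-error test gave -0.18 for Col1a1 and -0.08 for Col3a1 in KOT against WTT, and -0.17 for Col1a1 in the difference between responses. None of these passed. With each named value counted once per alternative, leaving out 1 mouse ended a call in 31 cases and made a call in 1. The other alternatives ended a call in 29 cases. The same call can be counted several times. All these endings fell on the 7 calls lost only in the local-pooled-error test and the 7 lost also elsewhere. The difference between responses has no value in a fit of 6 arrays. No paired analysis was possible because the animal numbers are not shared between groups. Depth in reads does not apply to arrays, and dim genes limit what a difference can show.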
